A study of Mus musculus with 15 samples.

Results

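The voltage-gated calcium and sodium channel genes were taken as every gene on the array whose symbol begins with Cacn, or with Scn followed by a number and the letter a or b. Of 20972 gene symbols with a probe, 39 met this rule, 26 for calcium channels and 13 for sodium channels. They comprised 10 calcium pore subunits (alpha1), 4 alpha2delta, 4 beta and 8 gamma subunits of calcium channels, 9 sodium pore subunits (alpha) and 4 sodium beta subunits. Each gene was represented by the probe with the highest mean hemibrain signal, and 25 of the 39 had a single probe.

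The left hemibrains came from male C57BL/6j mice, each profiled on 1 of 15 Agilent 2-colour arrays. All mice were placed on their diet at 3 weeks of age and kept on it for 24 weeks. The enriched diet (ERD) held 7 parts of n-3 to 1 part of n-6 polyunsaturated fatty acids, the balanced diet (BLD) 1 part to 1, and the standard laboratory diet (STD), against which the others were set, 1 part to 6, at equal calories. The groups were taken from the labelled diet, because all 15 sample titles, in every diet, carry the word CONTROL. Each diet had 5 arrays of 1 animal each. Hemibrain RNA was labelled with Cy5 on all arrays and a shared reference, RNA pooled from 11 mouse cell lines, with Cy3. Since no array had the dyes swapped, a dye effect could not be told apart from the ratio itself, although it is common to the 3 diets. A value below is the log2 ratio of hemibrain over reference for 1 probe, so levels were not compared between genes. Values are listed in the order of replicates 1 to 5, numbers that only name the animals.

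Voltage-gated channels open when the membrane is depolarised. Their pore subunits form the ion path, and the auxiliary subunits set how many channels reach the membrane and how fast they open and close. In brain, sodium channels carry the rising phase of the action potential, while calcium channels admit the calcium that triggers transmitter release and starts signalling in the cell body and dendrites. Several gamma subunits are better known as partners of AMPA-type glutamate receptors than of calcium channels.

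The promoter is shown for Scn11a, a sodium channel gene with lower values in ERD at an unadjusted p under 0.05 in 2 comparisons and a single promoter entry in RefSeq. The entry (RefSeq, build GRCm38.p6) spans 300 bases, 250 before and 50 after the annotated start of transcription, and is written 5′ to 3′ in the direction of transcription. It was searched for the GC box, GGGCGG on both strands (so CCGCCC too), with overlapping matches counted, and is in lower case throughout because it holds none. Scn11a lies on the minus strand at chr9:119825407-119825706.
Scn11a: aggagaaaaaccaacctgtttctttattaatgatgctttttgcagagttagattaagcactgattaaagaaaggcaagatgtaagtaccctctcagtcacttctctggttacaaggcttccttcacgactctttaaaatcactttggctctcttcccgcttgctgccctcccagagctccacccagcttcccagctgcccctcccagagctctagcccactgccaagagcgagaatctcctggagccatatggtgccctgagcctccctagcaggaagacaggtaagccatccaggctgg
The Scn11a window held 3 CpG dinucleotides and 0 GC boxes. RefSeq entries matched 29 of the 39 channel genes, with 40 windows in all. A GC box was found in 16 of these 40 windows (40%), against 35.7% of all 32851 promoters of the same length, and the motif TATAAA in 2, in the windows of Cacna1d and Scn2a, against 13.6% of all promoters. The median number of CpG was 10 in the channel genes' windows and 7 in all promoters.

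The spots whose Cy5 signal stood well above background numbered 17720 to 28117 on the ERD arrays, 22467 to 31991 on the BLD arrays and 24764 to 29140 on the STD arrays, with ERD 1 the lowest. ERD 1, BLD 3 and ERD 4 correlated least with the other arrays (median r across genes 0.88, 0.91 and 0.914). ERD 4, BLD 2, BLD 3 and BLD 4, but no STD array, were scanned on the later of 2 days. The 15 arrays lay on 8 slides, and slides 1 to 3 held no STD array. All 12 neuron markers examined were above background on all 15 arrays, and Cbln1, Pvalb and Zic1 of the cerebellar markers, Acta1 of the muscle markers and Pomc of the pituitary markers were too. In these lists of 8 genes each, 6, 2 and 2 were above background on at least 5 arrays, while the cerebellar granule cell genes Gabra6 and Cbln3, the muscle genes Ckm and Mylpf and the pituitary genes Gh, Prl, Tshb, Fshb and Pitx1 were above background on 0 arrays. In a tissue extract such as this, fewer cells of a type and less RNA per cell cannot be told apart.

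Hemibrain signal was well above background on all 15 arrays for 20 of the 39 channel genes, and 29 passed the filter of at least 5 arrays above background. In the calcium pore family, Cacna1a (P/Q-type) and the T-type pores Cacna1g, Cacna1h and Cacna1i were above background on all 15 arrays. So was the chosen probe of Cacna1s, the pore of skeletal muscle. A second Cacna1s probe was above background on 1 array and did not pass the filter. Cacna1d (L-type) was above background on 13. The probes of Cacna1b (N-type), Cacna1c (L-type) and Cacna1e (R-type), pores known from brain, were above background on 0 arrays, and that of the retinal pore Cacna1f on 1 (BLD). Each of these 4 genes had a single probe, so a probe that fails to bind and a transcript that is low could not be told apart.

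The sodium beta subunits Scn2b, Scn3b and Scn4b and the pores Scn1a, Scn2a, Scn3a and Scn8a were above background on all 15 arrays. Scn11a was above background on 14, the muscle pore Scn4a on 7, the sensory neuron pore Scn10a on 3 and Scn7a on 0. Among the calcium auxiliary subunits the lowest counts that passed were 8 arrays for Cacng8 and 9 for Cacnb2. Cacng6 (4 arrays), Cacng4 (3), Cacna2d4 (3) and Cacng1 (1) did not pass. Counting any probe of a gene in place of the chosen one raised Cacnb2 to 12 arrays and no other channel gene. The counts for 5 arrays per diet differed most for Cacnb2, with 2 in ERD, 2 in BLD and 5 in STD, and for Scn4a, with 2 in ERD, 4 in BLD and 1 in STD. Because genes near background pass through the diet where they are brighter, counts over the 29 genes below describe the genes that passed and not all 39.

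**Figure D1:**
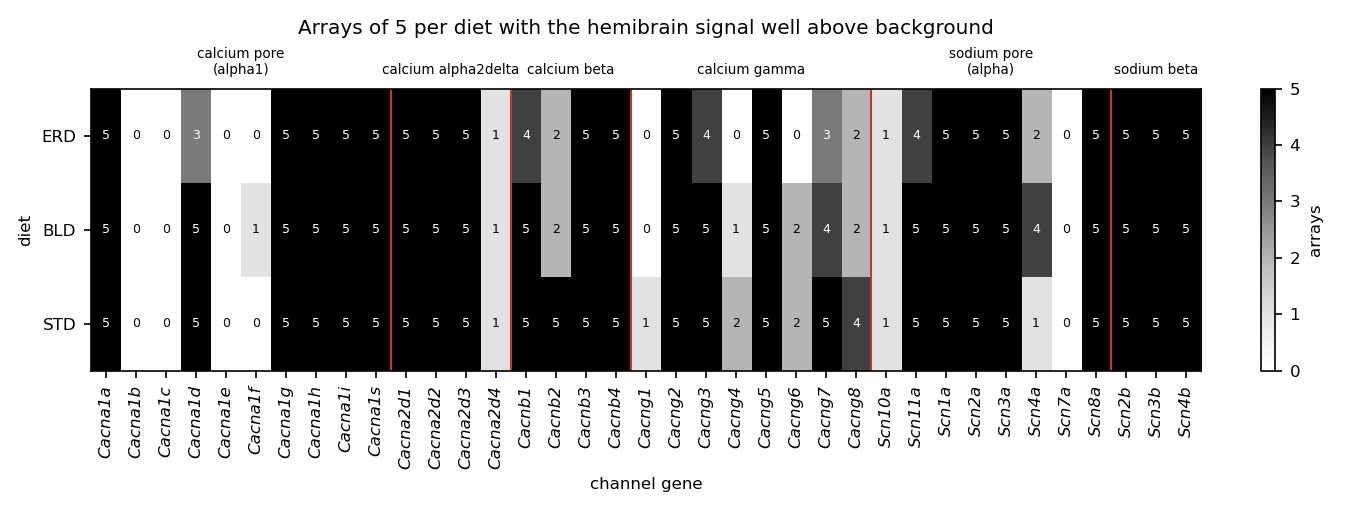
Number of arrays of 5 (shade and digit, 0 to 5) with hemibrain signal well above background, for each diet (rows ERD, BLD, STD) and 37 of the 39 channel genes (columns, by subunit class). The 19 genes drawn with 5 in every row were detected on all 15 arrays, and Cacna1b, Cacna1c, Cacna1e and Scn7a stand at 0 in every row.

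ERD was first set against STD, to ask which channel transcripts differ when the diet is rich in n-3 fatty acids. Of the 29 measured channel genes, 0 passed an adjusted p of 0.05 in limma, against 0.217% of the 22548 genes tested. These 22548, called all genes throughout, comprise 13754 genes with a symbol and 8794 single probes without one. At an unadjusted p of 0.05 there were 4, Scn3a, Scn11a and Cacna2d1 with lower and Scn3b with higher values in ERD, a share of 13.8% against 14.6% of all genes. The 3 lower genes compare with 7.64% of all genes that were lower at this p, and the 1 higher gene with 6.91% that were higher. The ERD and STD arrays did not overlap in 3 of the 29 genes (10.3%), against 3.77% of all genes. The estimate was below 0 for 21 of the 29 genes, against 47.3% of all genes. From Cy5 alone, however, it was below 0 for 13 of 29, against 49.6% of all genes. The median log2 difference was -0.16, against 0.01 over all genes, and 0.01 from Cy5 alone. By class, estimates below 0 were found for 5 of 6 calcium pores, 3 of 3 alpha2delta, 2 of 4 calcium beta, 5 of 5 gamma subunits, and 6 of 11 sodium channel genes.

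BLD was set against STD to ask the same of the balanced diet, with the same 5 STD arrays as in the first comparison. Again 0 of 29 channel genes passed the adjusted threshold in limma, against 0.00887% of all genes. An unadjusted p under 0.05 was reached by 2, Scn3b with higher and Cacna2d2 with lower values in BLD, against 10.7% of all genes (7.59% higher and 3.14% lower). The arrays did not overlap for 1 gene, Cacna2d2, against 2.87% of all genes. Estimates were below 0 for 12 of the 29 genes, against 39.9% of all genes, with a median of 0.04 against 0.05 over all genes. That split turned under some other settings. With the scanner software's own log ratio 22 of 29 were below 0 (median -0.29), against 50.4% of all genes. A normexp offset of 1 gave 21 of 29 (median -0.21), against 52.1%, and scan day as a block 19 of 29 (median -0.08), against 44.3%. Of the BLD arrays, only BLD 1 and BLD 5 shared a scan day with STD arrays. From Cy5 alone 16 of 29 were below 0, against 53.9%, but with median centring 10 of 29, against 19.1%.

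ERD was also set against BLD, which uses arrays of both comparisons above. In limma 0 channel genes passed the adjusted threshold, as did 0.0% of all genes. An unadjusted p under 0.05 was reached by 6 of the 29, against 10.4% of all genes, and all 6, among them Scn3a, Cacng3, Cacna1d, Cacna2d1 and Scn11a, had lower values in ERD, as did 7.76% of all genes at this p. The arrays of the 2 diets did not overlap for Scn3a alone, against 1.37% of all genes. Estimates were below 0 for 22 of 29 genes, against 58.0% of all genes, with a median of -0.10 against -0.04. With the scanner software's log ratio 11 of 29 were below 0 (median 0.09), against 53.3% of all genes. An offset of 1 gave 10 of 29 (median 0.12), against 48.3%, and Cy5 alone 12 of 29, against 47.8%. Without ERD 1 it was 15 of 29 (median -0.0030), against 56.3%, and with the number of detected spots as a covariate 14 of 29, against 54.2%. Median centring gave 25 of 29, against 83.3%. Over the 3 diets at once, 0 of 29 channel genes passed the adjusted threshold in limma's F test (0.0488% of all genes), and the unadjusted p was under 0.05 for 6 (13.4% of all genes).

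**Figure D2:**
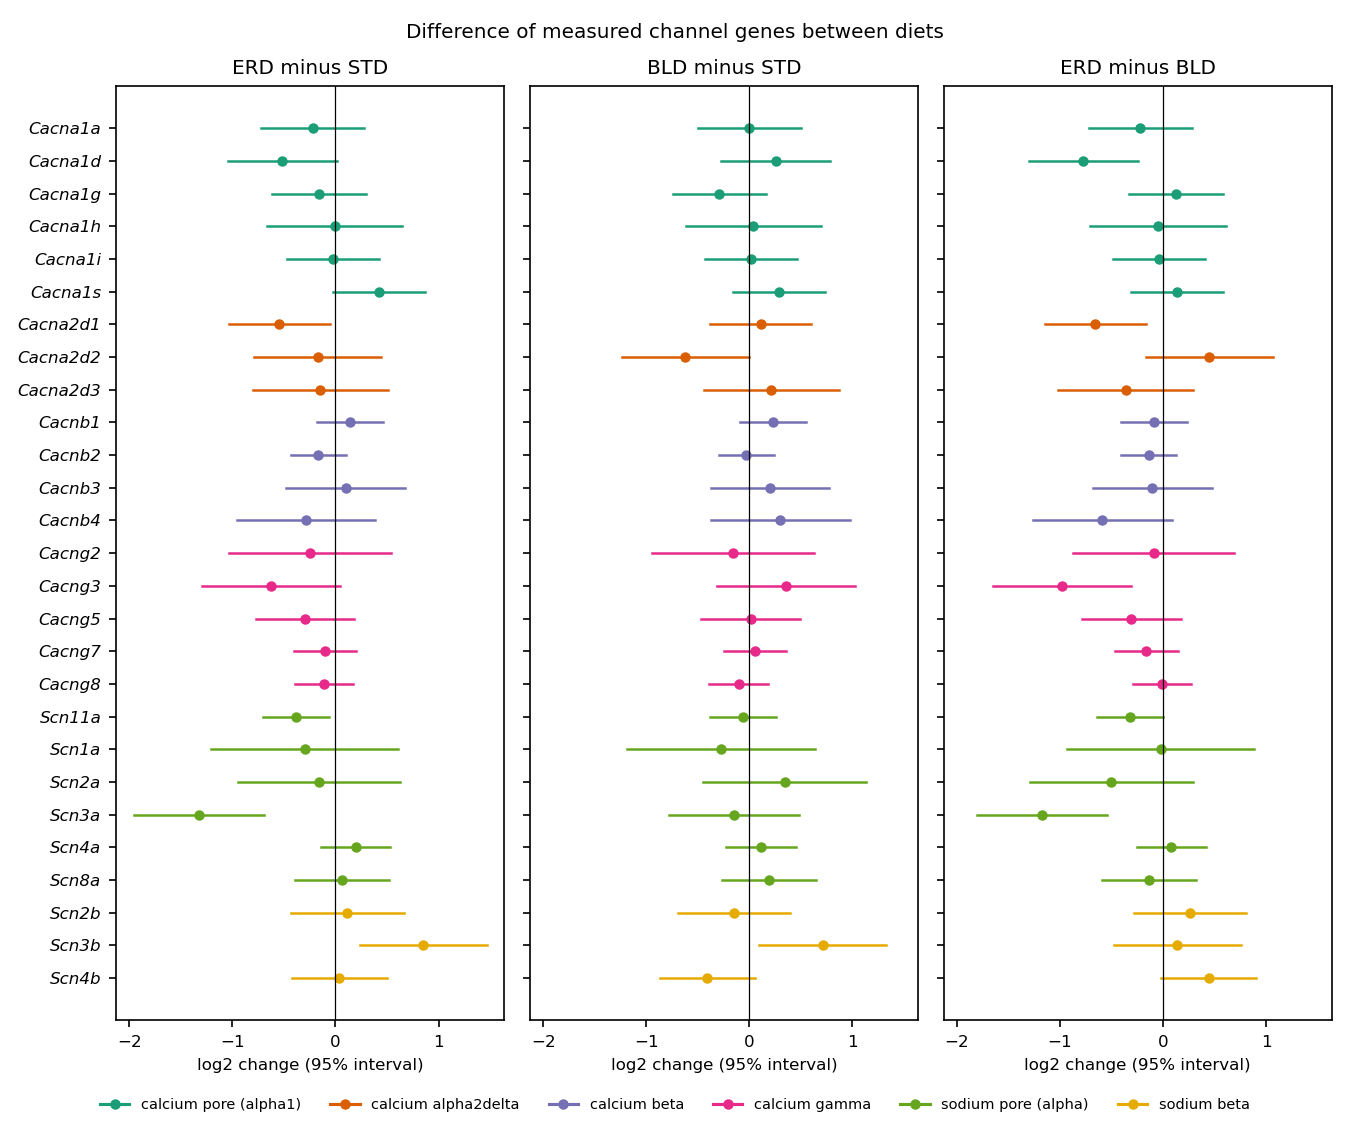
Log2 difference in hemibrain over reference ratio (points, horizontal axis) with its 95% interval (lines) for 27 of the 29 measured channel genes (rows, coloured by subunit class), for ERD minus STD, BLD minus STD and ERD minus BLD. Scn3a lies farthest below 0 in both panels with ERD, at -1.33 and -1.18, and Scn3b farthest above 0 in both panels with STD, at 0.85 and 0.71.

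Among sodium pores, Scn3a had the lowest unadjusted p of all channel genes in both comparisons with ERD. It encodes Nav1.3, a sodium channel pore abundant in the embryonic and newborn rodent brain, and lies on chromosome 2 beside Scn1a and Scn2a. Its log2 ratios were 0.86, 2.60, 2.16, 2.21 and 2.61 in ERD, 2.69, 3.00, 3.36, 3.56 and 3.72 in BLD, and 3.53, 3.80, 3.34, 3.54 and 2.87 in STD. Every ERD array lay below every BLD and every STD array, and ERD 1 lay far below the other ERD arrays. The means were 2.09 ± 0.72 in ERD, 3.27 ± 0.42 in BLD and 3.42 ± 0.35 in STD (SD, n = 5 each).

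Scn3a was 2.51-fold lower in ERD than in STD, a log2 difference of -1.33 ± 0.30 (SE), with an unadjusted p = 0.000434 and an adjusted p of 0.0835 in limma. Against BLD the difference was -1.18 ± 0.30 (SE; adjusted p = 0.286). Between BLD and STD it was -0.15, with a 95% interval of -0.78 to 0.48. A second Scn3a probe, above background on all 15 arrays, gave -0.82 for ERD against STD (unadjusted p = 0.0305) and -0.93 for ERD against BLD (unadjusted p = 0.0156), and another probe was above background on 0 arrays. The reference RNA in Cy3, which was above background for the chosen probe on 3 ERD, 2 BLD and 4 STD arrays, differed by -0.10 between ERD and STD.

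Within the 3 slides that held both diets, ERD minus STD for Scn3a was -1.19, -1.37 and -0.94, without a test. The adjusted p in limma for ERD against STD crossed 0.05 under 4 alternatives. It was 0.0283 from Cy5 alone (difference -0.75), 0.0172 with array weights (-1.29), 0.0468 with slide as a random block (-1.28) and 0.0184 with the number of detected spots as a covariate (-1.01). With slide as a fixed block it was 0.346 (-1.18), so the 2 slide fits fell on different sides of the threshold. Among the other settings that used the ratio it lay between 0.0509, with the scanner software's log ratio (-1.34), and 0.304, with median centring in place of loess (-0.86). For ERD against BLD the difference shrank to -0.68 with a normexp offset of 1, -0.73 with the covariate and -0.49 from Cy5 alone. Leaving out 1 array at a time gave -1.46 to -1.02, with adjusted p between 0.0606 and 0.182. Without ERD 1, ERD 4 and BLD 3 the difference was -0.96 (adjusted p = 0.25).

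**Figure D3:**
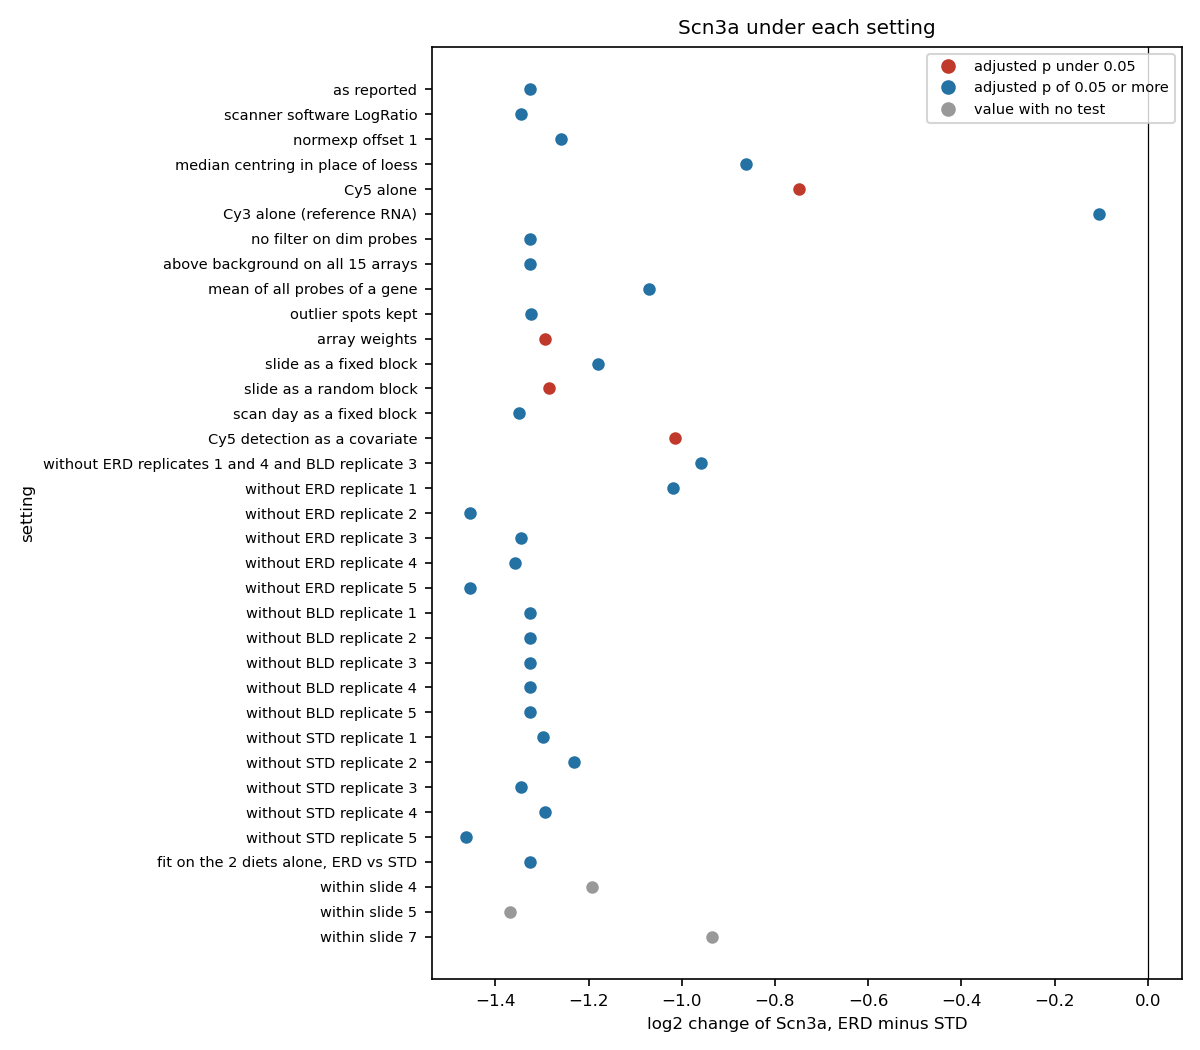
Log2 difference of Scn3a, ERD minus STD (horizontal axis), as reported and under each alternative setting (rows), coloured by whether the adjusted p was under 0.05, with values within single slides in grey. Values from the ratio and from Cy5 lie between -1.46 and -0.75, and the reference RNA in Cy3 lies at -0.10.

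Scn11a, the pore of Nav1.9 in sensory neurons of the dorsal root ganglia, had ratios between 0.13 and 1.03. They were 0.13, 0.31, 0.22, 0.16 and 0.37 in ERD, 0.79, 0.20, 0.26, 0.53 and 1.03 in BLD, and 0.80, 0.82, 0.51, 0.57 and 0.39 in STD. The ERD arrays lay below all STD arrays, with ERD 5 and STD 5 close together, while the BLD arrays spanned both. The difference between ERD and STD was -0.38 ± 0.15 (SE; adjusted p = 0.269 in limma), and -0.51, -0.58 and -0.20 within slides. It became -0.80 with the scanner software's log ratio and -0.86 with an offset of 1, but -0.22 with median centring and -0.18 from Cy5 alone. ERD minus BLD was -0.32, and -0.21 without BLD 5. The probe was above background in the hemibrain on 4 ERD, 5 BLD and 5 STD arrays. In the reference it was above background on 3 ERD, 2 BLD and 3 STD arrays.

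Scn1a, Scn2a and Scn8a, the main pores of adult brain neurons, did not pass the test in any comparison with the chosen probes. For Scn1a (Nav1.1, found in inhibitory interneurons) ERD minus STD was -0.30, with a 95% interval of -1.21 to 0.61, and ERD minus BLD was -0.02. A second Scn1a probe, above background on 13 arrays, gave -0.37 (unadjusted p = 0.0436) and -0.43 (unadjusted p = 0.0222) for these. For Scn2a (Nav1.2) it was -0.16 (95% interval -0.95 to 0.63), and the ERD arrays ranged from 4.20 (ERD 1) to 6.55 (ERD 5), a wider span than the 4.95 to 6.22 in STD. Its other probes gave -0.05 and -0.30. The reference was above background on 4 arrays for the chosen Scn1a probe and on 7 for that of Scn2a. Scn8a (Nav1.6, the pore at nodes of Ranvier) differed by 0.06 (95% interval -0.40 to 0.52) with the chosen probe. A second Scn8a probe, above background on 14 arrays, gave -0.93 (unadjusted p = 0.00183), so the probes of this gene disagreed. BLD minus STD was -0.27 for Scn1a, 0.34 for Scn2a and 0.19 for Scn8a, with adjusted p from 0.76 to 0.841. The muscle pore Scn4a differed by 0.19 between ERD and STD (adjusted p = 0.586 in limma). Whether probes of this closely related family bind one another's transcripts was not tested.

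The sodium beta subunits are single-pass membrane proteins that modulate the pore and act in cell adhesion. Scn3b, the beta3 subunit, had ratios of 3.80, 4.69, 3.27, 3.55 and 3.74 in ERD, 3.93, 3.46, 3.82, 3.31 and 3.84 in BLD, and 3.57, 3.30, 2.79, 3.21 and 1.93 in STD. In ERD 3 of 5 and in BLD 3 of 5 arrays lay above all STD arrays, the groups overlapped, and STD 5 was the lowest of all 15. Relative to STD, the difference was 0.85 ± 0.29 (SE; adjusted p = 0.211 in limma) in ERD and 0.71 ± 0.29 (adjusted p = 0.445) in BLD. Without STD 5 the BLD difference was 0.46, and it was 0.34 with the scanner software's log ratio, 0.44 with an offset of 1 and 0.46 with array weights. The ERD difference was 0.53 with median centring, 0.56 with array weights and 0.54 with slide as a fixed block. Within slides ERD minus STD was 1.40, -0.29 and 0.53, so its sign was not the same on each slide, and BLD minus STD was 0.63 on the 1 slide with both diets. In Cy3, ERD minus STD was 0.30.

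Scn4b, the beta4 subunit linked to resurgent current, had ratios of 5.73, 5.74, 4.52, 5.14 and 4.80 in ERD, 4.44, 4.90, 4.97, 4.92 and 4.47 in BLD, and 5.43, 4.99, 5.15, 4.91 and 5.27 in STD. ERD 1 and ERD 2 were the highest of all arrays, and of the BLD arrays BLD 3 and BLD 4 exceeded the lowest STD array, STD 4. BLD minus STD was -0.41 ± 0.22 (SE; adjusted p = 0.491 in limma) and ERD minus BLD 0.44 ± 0.22 (adjusted p = 0.502). Scn2b, the beta2 subunit, ranged from 5.84 to 7.26 in ERD, from 5.75 to 6.68 in BLD and from 5.92 to 6.90 in STD, and ERD minus STD was 0.12 (95% interval -0.43 to 0.66).

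Among calcium pores, Cacna1d (Cav1.3, an L-type channel of neurons and endocrine cells) had the lowest unadjusted p in both comparisons with ERD. Its ratios were -0.024, 0.15, 0.63, 0.47 and 0.93 in ERD, 1.67, 0.76, 0.61, 1.60 and 1.37 in BLD, and 1.29, 1.41, 0.79, 0.86 and 0.39 in STD. The ERD arrays were mostly low but overlapped both other diets. ERD minus BLD was -0.77 ± 0.25 (SE; adjusted p = 0.37 in limma) and ERD minus STD -0.51 ± 0.25 (adjusted p = 0.356). Within slides ERD minus BLD was -0.21, -1.70 and -0.45, and the largest of these came from the slide with ERD 1. The reference was above background for this probe on 0 arrays. A second probe, above background on 8 arrays, gave -0.16 for ERD minus BLD. The difference for ERD depended in size on the background correction. Against BLD it was -1.41 with the scanner software's log ratio and -1.43 with an offset of 1, and against STD -1.89 and -1.07. From Cy5 alone both were smaller, at -0.28 against each diet, and with median centring they were -0.51 and -0.19.

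Cacna1s was the 1 calcium pore with estimates above 0 against STD in both other diets. Its ratios were below 0 throughout, at -0.98, -1.17, -1.25, -0.41 and -1.49 in ERD, -1.63, -0.78, -0.73, -1.50 and -1.33 in BLD, and -1.35, -1.76, -1.59, -1.38 and -1.33 in STD. ERD 4, BLD 2 and BLD 3, which shared slide 1 and were scanned on the later day, were the highest of the 15. BLD 4, of the same day but on slide 2, was among the low ones. No STD array was on slide 1. Relative to STD the difference was 0.42 ± 0.21 (SE, adjusted p = 0.37 in limma) in ERD and 0.29 ± 0.21 (adjusted p = 0.624) in BLD. The BLD difference was -0.08 with scan day as a block and -0.057 with slide as a fixed block. The reference in Cy3 differed from STD by -0.11 in ERD and by -0.27 in BLD for this probe.

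Cacna1a (Cav2.1), which drives transmitter release at most central synapses, ranged from 1.95 to 3.29 in ERD, from 2.44 to 3.46 in BLD and from 2.55 to 3.14 in STD. ERD minus STD was -0.22 (95% interval -0.72 to 0.28) with the chosen probe. A second Cacna1a probe, above background on 14 arrays, gave -0.61 for ERD minus STD (unadjusted p = 0.0297) and -0.97 for ERD minus BLD (unadjusted p = 0.00151). The T-type pores, which open near rest and support burst firing, had estimates nearer 0 with the chosen probes. ERD minus STD was -0.16 for Cacna1g, -0.0095 for Cacna1h and -0.02 for Cacna1i, with intervals reaching at most 0.67 on either side. BLD minus STD was -0.29 for Cacna1g (adjusted p = 0.631), and 0.03 with its second probe. A second Cacna1i probe, above background on all 15 arrays, gave 0.46 for ERD minus STD (unadjusted p = 0.259) and 0.55 for BLD minus STD (unadjusted p = 0.187).

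The alpha2delta subunits are extracellular proteins that bring calcium channels to the presynaptic membrane, and the first 2 bind the drug gabapentin. Cacna2d1 had ratios of 1.07, 1.76, 1.95, 1.96 and 1.77 in ERD, 2.87, 2.27, 2.63, 2.49 and 1.54 in BLD, and 1.96, 2.48, 1.98, 2.32 and 2.52 in STD. No ERD array exceeded an STD array, although ERD 4 and STD 1 were nearly equal, and of the BLD arrays BLD 5 alone lay among the ERD values. ERD minus STD was -0.55 ± 0.23 (SE; adjusted p = 0.294 in limma) and ERD minus BLD -0.66 ± 0.23 (adjusted p = 0.405). Within slides ERD minus STD was -0.71, -0.0044 and -0.55, and ERD minus BLD was -0.49, -1.80 and 0.23. The ERD minus BLD difference was -0.31 with the scanner software's log ratio and -0.42 with an offset of 1. A second probe gave -0.23 for ERD minus STD.

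Cacna2d2 was the channel gene whose BLD and STD arrays did not overlap. Its ratios were 5.68, 5.0, 3.77, 4.01 and 3.85 in ERD, 3.87, 4.03, 4.07, 4.04 and 4.05 in BLD, and 4.73, 4.58, 4.96, 4.32 and 4.58 in STD. The BLD arrays were tightly grouped (SD 0.080) below STD (SD 0.23), while the ERD arrays split around STD, with ERD 1 and ERD 2 above it and the other 3 below. BLD minus STD was -0.62 ± 0.29 (SE; adjusted p = 0.464 in limma) and -0.26 on the 1 slide with both diets. A second probe, above background on 5 arrays, gave 0.54 (unadjusted p = 0.00748), the opposite sign, and the mean of both probes -0.043. With median centring the chosen probe gave -0.35. Cacna2d3 differed by -0.15 in ERD and by 0.21 in BLD against STD (adjusted p 0.857 and 0.828).

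The calcium beta subunits bind the pore inside the cell and carry it to the membrane. ERD minus STD was 0.14 for Cacnb1, -0.17 for Cacnb2, 0.10 for Cacnb3 and -0.29 for Cacnb4, with adjusted p from 0.548 to 0.895. A second Cacnb2 probe, above background on 9 arrays, gave -0.24 for ERD minus STD and -0.41 for ERD minus BLD (unadjusted p = 0.0166), against -0.14 with the chosen probe. For the chosen Cacnb2 probe the reference was above background on 0 arrays. BLD minus STD for Cacnb1 was 0.23 ± 0.15 (SE; adjusted p = 0.569 in limma). For this gene it was -0.021 from Cy5 alone and -0.28 in the reference in Cy3. Cacnb4, the beta subunit mutated in the lethargic mouse, ranged from 1.70 to 3.33 in ERD, from 2.44 to 3.64 in BLD and from 2.52 to 3.36 in STD. ERD minus BLD for Cacnb4 was -0.59 ± 0.32 (adjusted p = 0.54), with ERD 1 and ERD 3 the lowest of all arrays.

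Cacng3 had the lowest p of the gamma subunits. It encodes an AMPA receptor partner of cortex and hippocampus. Its ratios were -0.059, 1.49, 2.27, 1.44 and 1.48 in ERD, 2.82, 2.06, 2.11, 2.34 and 2.19 in BLD, and 2.25, 2.32, 1.82, 1.66 and 1.70 in STD. Apart from ERD 3, each ERD array lay below all BLD and STD arrays. ERD minus BLD was -0.98 ± 0.31 (SE; adjusted p = 0.366 in limma) and ERD minus STD -0.63 ± 0.31 (adjusted p = 0.372). Without ERD 1, the 1 ERD array on which Cacng3 was not above background, ERD minus BLD was -0.64 and ERD minus STD -0.28. The difference from BLD was also smaller with median centring (-0.54) and from Cy5 alone (-0.55). The reference in Cy3 differed by -0.40 between ERD and STD for this probe. Cacng2 (stargazin), Cacng5, Cacng7 and Cacng8 differed by -0.29 to -0.10 between ERD and STD, with adjusted p from 0.558 to 0.786. For these the reference was above background on 2, 3, 9 and 2 arrays.

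**Figure D4:**
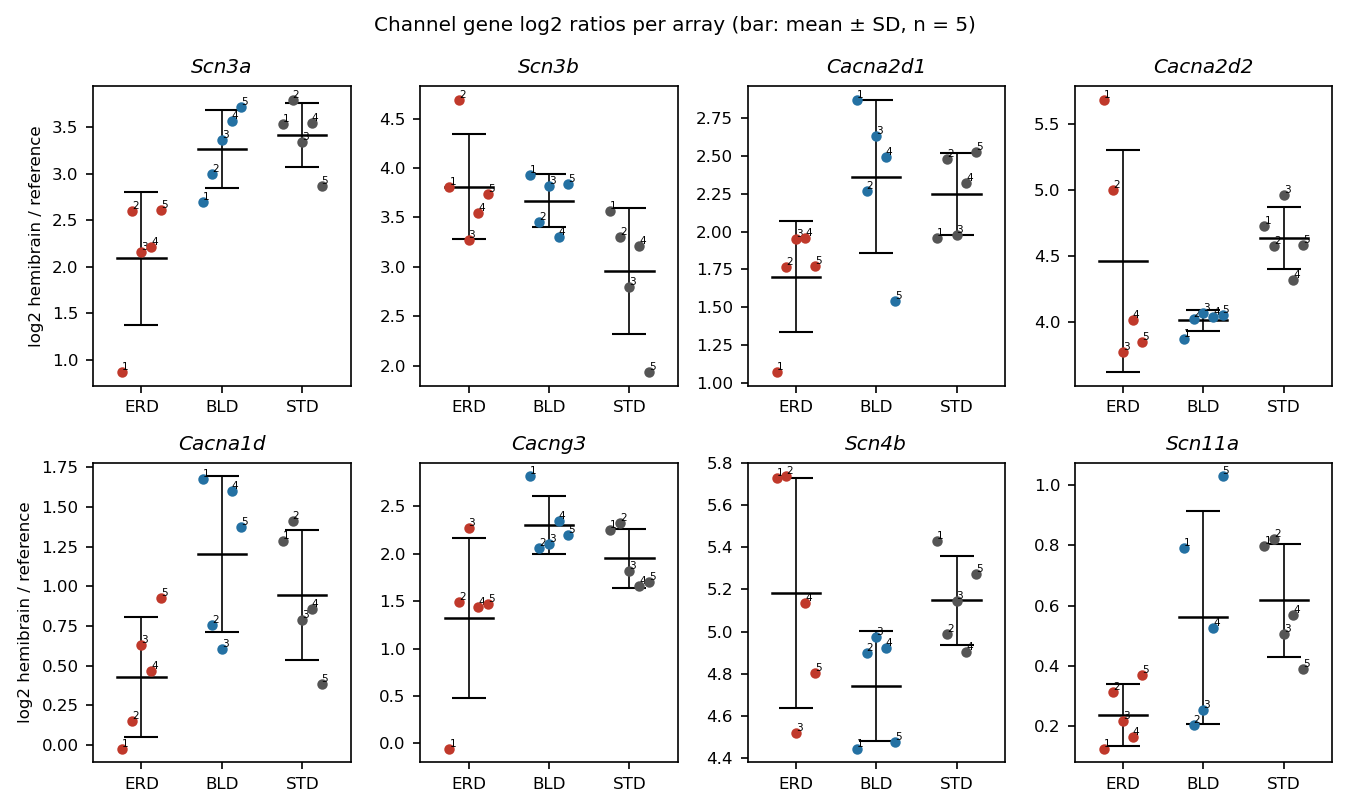
Log2 ratio of hemibrain over reference (vertical axis, one scale per gene) on each array (points, numbered by replicate) for 8 channel genes, with the mean and SD of each diet (bars, n = 5). For Scn3a the 5 ERD arrays (0.86 to 2.61) lie below all BLD arrays (2.69 to 3.72) and STD arrays (2.87 to 3.80), and ERD 1 is the lowest array for Scn3a, Cacna2d1, Cacna1d, Cacng3 and Scn11a.

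As a summary per array, each gene was centred on its mean over the 15 arrays and the 29 channel genes were averaged. These means were -0.48, 0.19, -0.26, -0.0083 and -0.058 in ERD, -0.049, 0.076, 0.033, 0.26 and 0.097 in BLD, and 0.11, 0.19, 0.033, -0.050 and -0.087 in STD. ERD 1 and ERD 3 lay lowest and ERD 2 lay at the level of the highest STD array, so the diets overlapped. The 12 neuron markers averaged -0.65 to 0.09 in ERD, -0.33 to 0.32 in BLD and -0.03 to 0.23 in STD, with ERD 1 lowest there too. Of these markers 9 of 12 had estimates below 0 in ERD against STD (median -0.22), where 47.3% of all genes did, and 0 passed the adjusted threshold in limma. Markers of other cells had estimates below 0 in 6 of 8 for microglia (median -0.36), 6 of 8 for oligodendrocytes (-0.25), 6 of 8 for astrocytes (-0.13) and 7 of 8 for endothelium (-0.20). ERD 1 had the lowest mean of the microglia, oligodendrocyte and endothelium lists too, and BLD 3 that of the astrocyte list. Of the neuron markers Map2 had the lowest p in limma at -1.89 ± 0.67 (SE, adjusted p = 0.222), and Snap25 was at 1.38 ± 0.54 (adjusted p = 0.263). For Snap25, ERD 4 stood at 5.43, the other ERD arrays at 2.77 to 3.93 and the STD arrays at 1.69 to 2.53. BLD 2 and BLD 3, on the same slide as ERD 4, were the highest BLD arrays, at 5.37 and 4.10. The astrocyte marker Gfap had a lower p than Map2 and lay above 0, at 1.04 ± 0.27 (adjusted p = 0.122). Aldoc, of the same list, also had a lower p than Map2 but lay below 0, at -0.61 ± 0.17 (adjusted p = 0.14). The part of cell content, and of the low number of detected spots on ERD 1, in the channel genes' values was not tested.

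**Figure D5:**
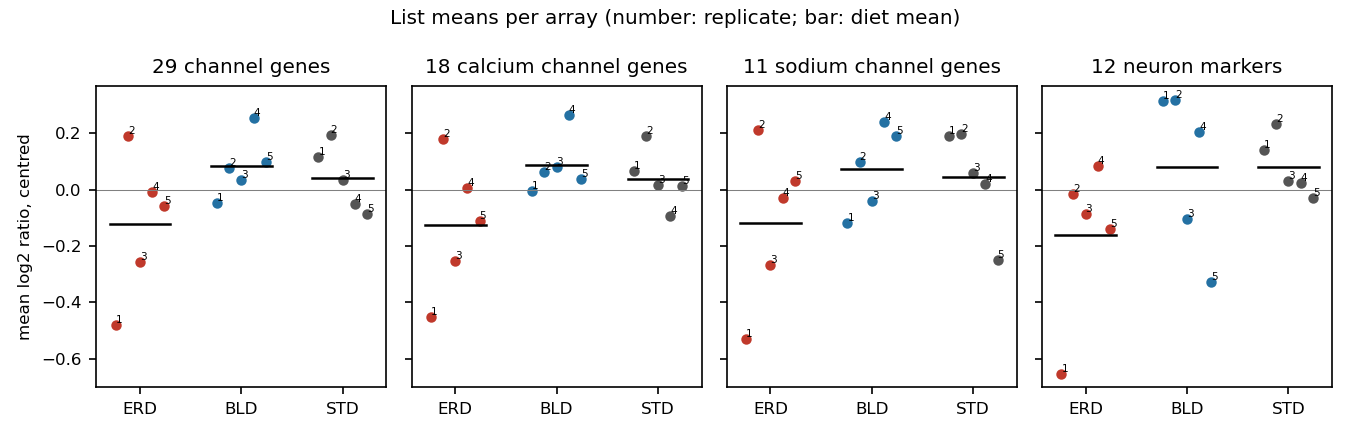
Mean log2 ratio per array (points, numbered by replicate, vertical axis), each gene centred on its mean over the 15 arrays, for all 29 measured channel genes, the 18 for calcium channels, the 11 for sodium channels and 12 neuron markers, with the mean of each diet (bar). ERD 1 is the lowest array in all 4 panels, at -0.48 for the channel genes and -0.65 for the neuron markers.

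Proteins that bind or anchor the channels were described in the same way. Of 23 measured partners of sodium channels, 0 passed the adjusted threshold in limma in any of the 3 comparisons. Estimates were below 0 for 16 of 23 in ERD against STD (median -0.13), for 9 of 23 in BLD against STD (median 0.18) and for 19 of 23 in ERD against BLD (median -0.26), where the shares of all genes were 47.3%, 39.9% and 58.0%. At an unadjusted p under 0.05 the counts were 5, 2 and 5, or 21.7%, 8.7% and 21.7%, against 14.6%, 10.7% and 10.4% of all genes. Against STD the lowest p in ERD belonged to Unc80, a subunit of the sodium leak channel, at -1.22 ± 0.39 (SE; adjusted p = 0.188), and to Ank3, the ankyrin that anchors sodium channels at the axon initial segment, at -0.61 ± 0.23 (adjusted p = 0.244). ERD minus BLD was -0.83 ± 0.23 for Ank3 (adjusted p = 0.317) and -1.16 ± 0.41 for the ubiquitin ligase Nedd4l (adjusted p = 0.411). BLD minus STD was 0.62 ± 0.25 for Cntnap1, an adhesion protein beside nodes of Ranvier (adjusted p = 0.445), and 0.52 ± 0.23 for Ank2, another ankyrin (adjusted p = 0.454).

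For Ank3 the ratios were 0.65, 1.76, 1.43, 1.47 and 2.19 in ERD, 2.23, 2.16, 2.23, 2.57 and 2.46 in BLD, and 2.39, 2.53, 1.90, 1.99 and 1.76 in STD. ERD 5 was the 1 ERD array within the range of the BLD values, and it lay below the highest STD arrays, STD 1 and STD 2. Of 26 partners of calcium channels 23 were measured, and 0 passed the adjusted threshold in limma in any comparison, with 6, 5 and 4 at an unadjusted p under 0.05 in ERD against STD, BLD against STD and ERD against BLD. These are 26.1%, 21.7% and 17.4% of the partners, against 14.6%, 10.7% and 10.4% of all genes. Estimates were below 0 for 13, 10 and 13 of the 23, or 56.5%, 43.5% and 56.5%, against 47.3%, 39.9% and 58.0% of all genes. For Stac, an adaptor of L-type channels, ERD minus STD was -0.49 ± 0.16 (SE; adjusted p = 0.195 in limma). BLD minus STD was -1.05 ± 0.37 for the calcium sensor Syt1 (adjusted p = 0.409). ERD minus BLD was -0.41 ± 0.16 for Rem2, a small GTPase that inhibits calcium channels (adjusted p = 0.43), and -0.57 ± 0.24 for Calm2, a calmodulin gene (adjusted p = 0.448).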

How the data were processed

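The authors deposited 1 scanner file per array. Per the file headers these hold, for each spot and channel, a median pixel intensity of the spot and of its local background, a processed intensity and a log10 ratio of Cy5 over Cy3, with flags for outliers and for signal well above background. The headers name Agilent Feature Extraction 11.5.1.1 as the software, whereas version 10.7 is given per the submitters' processing notes. The value table deposited for the series holds the same log10 ratios (equal within 1e-04 for 100% of the 62976 spots of each array) and was not used further. Slide and scan day were read from the files.

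Median intensities were background-corrected by normexp (offset 50) and loess-normalized within arrays, with control spots at no weight, in limma 3.58.1 (R 4.3.3). Outlier spots (0.574%) were dropped and spots of a probe averaged. RefSeq accessions gave a symbol to 27656 of 55681 probes. Probes above background in Cy5 on at least 5 arrays, with at least 8 values, were kept, 1 probe per symbol. This left 22548 entries, 13754 genes with a symbol and 8794 probes without one, each of which was kept singly. One limma model over 15 arrays gave the 3 comparisons and an F test (12 residual degrees of freedom), with 2-sided p and Benjamini-Hochberg adjustment over all genes. Since each array is 1 animal, p-values measure the spread between animals together with any spread between arrays, slides and scan days. The number of arrays limits precision (median SE 0.163 for ERD minus STD).

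The channel genes, the partner and marker lists and the settings were chosen with earlier results of these data known. Genes named in each comparison were the 8 of lowest p and the principal brain pore and sodium beta subunits, and the 2 partners of lowest p per list. The fit was tested on simulated data, drawn independently for each gene and array. These held no slide, scan day or whole-array effect, so the simulation does not cover such effects. Alternatives covered background, dye normalization, single channels, filters, probes, weights, slide, scan day and left-out arrays. Tables were handled with data.table (version 1.17.8) and jsonlite (version 2.0.0), and figures drawn with Python 3.11.15, pandas 2.3.3, numpy 2.4.6 and matplotlib 3.10.9. The build named per the file headers is older than GRCm38.p6, so no coordinates were taken from the scanner files. The values of a few genes, which are included in the counts, and some promoters are not reported here. Methylation and microRNA data were not used here.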

Additional observations from a re-analysis of the deposited data

Results flagged for a closer look

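Among 87 groups of 5 arrays (29 channel genes in 3 diets), 6 held 1 array whose gap to the nearest other was large against the whole range of its group, where chance flags about 1 in 20 groups, or 4.35 of 87. The values of 5 of them follow. In ERD these were both ERD 1, with a log2 ratio of 0.86 for Scn3a (the other 4 ERD arrays at 2.16 to 2.61) and of 1.07 for Cacna2d1 (the others at 1.76 to 1.96). In BLD it was BLD 1 at 3.87 for Cacna2d2 (the others at 4.03 to 4.07). In STD they were both STD 5, at 1.87 for Cacnb3 (the others at 1.04 to 1.25) and at 4.95 for Scn2a (the others at 5.92 to 6.22). Without ERD 1 the ERD minus STD difference was -1.02 for Scn3a and -0.39 for Cacna2d1.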

How the results depend on the processing

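By replicate number no paired analysis was possible because the labels give none (the numbers used here follow accession order). Slides shared by diets were used as a block and for values within slides. Each of 39 settings was applied as far as it could be, which gave 1639 recomputed values. The count of channel genes past an adjusted p of 0.05 was 0 in all 3 comparisons and in the F test, and stayed 0 when any 1 array was left out. In ERD against STD it was 1 (Scn3a) from Cy5 alone, with array weights, with slide as a random block and with the number of detected spots as a covariate. The median difference of the channel genes ran from -0.26 to -0.08 in ERD against STD with 1 array left out, from -0.02 to 0.09 in BLD against STD and from -0.22 to -0.0030 in ERD against BLD. For BLD against STD it was -0.29 with the log ratio of the scanner software and -0.21 with an offset of 1, and for ERD against BLD 0.09 and 0.12. Within single slides it was 0.15 (slide 4), -0.29 (slide 5) and 0.07 (slide 7) for ERD against STD. For ERD against BLD it was 0.0014 (slide 1), -0.39 (slide 3) and -0.13 (slide 7), and for BLD against STD 0.13 (slide 7). With median centring the median of all genes shifted to 0.18 in BLD against STD and -0.20 in ERD against BLD. The cause of these shifts was not tested.

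Differences of single genes that took the other sign were mostly small in the reported setting, and none of them had passed the threshold. With the log ratio of the scanner software, Scn2a 0.071 in ERD against STD, Cacna1d -0.49, Scn2a -0.018 and Scn8a -0.079 in BLD against STD, Cacnb4 0.00038, Cacna1a 0.10, Scn1a 0.65, Scn2a 0.089 and Scn8a 0.23 in ERD against BLD had the other sign. With a normexp offset of 1, Scn2a 0.13 in ERD against STD, Scn8a -0.022 in BLD against STD, Cacnb4 0.024, Cacna1a 0.11, Scn1a 0.59, Scn2a 0.12 and Scn8a 0.21 in ERD against BLD had the other sign. With median centring in place of loess, Scn2b -0.015 and Scn4b -0.077 in ERD against STD, Cacna1a 0.19 and Scn2b 0.052 in BLD against STD, Cacna1g -0.094, Scn2b -0.067 and Scn3b -0.20 in ERD against BLD had the other sign. From Cy5 alone, Scn2a 0.035 in ERD against STD, Cacnb1 -0.021 in BLD against STD, Scn1a 0.23 in ERD against BLD had the other sign. In the reference RNA alone (Cy3), Scn11a 0.00063, Cacna1s -0.11, Scn1a 0.087 and Scn8a -0.077 in ERD against STD, Scn3b -0.029, Cacna2d2 0.030, Scn4b 0.12, Cacnb1 -0.28, Cacna1s -0.27, Cacng3 -0.18, Cacna1d -0.092, Scn1a 0.18, Scn2a -0.10 and Scn2b 0.048 in BLD against STD, Scn4b -0.069, Scn2a 0.026 and Scn2b -0.021 in ERD against BLD had the other sign. These Cy3 values describe the reference, the denominator of the ratio, so their sign is not that of a hemibrain difference. With the mean of all probes of a gene, Scn8a -0.44 in ERD against STD, Cacna1a 0.18 and Scn8a -0.11 in BLD against STD, Cacna1g -0.061 in ERD against BLD had the other sign. With outlier spots kept, Cacna1a 0.0035 in BLD against STD had the other sign. With array weights, Scn4b -0.084 in ERD against STD had the other sign. With slide as a fixed block, Scn8a -0.014 and Scn4b -0.044 in ERD against STD, Cacna1s -0.057, Cacna1a 0.16, Scn3a 0.12 and Scn2b 0.059 in BLD against STD, Scn3b -0.10 in ERD against BLD had the other sign. With slide as a random block, Cacna1a 0.050 in BLD against STD had the other sign. With scan day as a block, Scn4b -0.015 in ERD against STD, Cacna1s -0.082, Cacna1a 0.12 and Scn2b 0.018 in BLD against STD had the other sign. With the number of detected spots as a covariate, Scn2a 0.13 in ERD against STD, Scn1a 0.40 and Scn8a 0.043 in ERD against BLD had the other sign. Without ERD 1, ERD 4 and BLD 3, Scn2a 0.23 and Scn4b -0.13 in ERD against STD, Cacna1a 0.11 in BLD against STD, Scn1a 0.0091 in ERD against BLD had the other sign. With 1 array left out the sign also turned for Cacna1a in BLD against STD (-0.15 to 0.11), Scn1a in ERD against BLD (-0.28 to 0.20), Scn2a in ERD against STD (-0.38 to 0.21), Scn2b in ERD against STD (-0.083 to 0.27), Scn3b in ERD against BLD (-0.080 to 0.28), Scn4b in ERD against STD (-0.10 to 0.20), Scn8a in ERD against BLD (-0.26 to 0.053) and Scn8a in ERD against STD (-0.066 to 0.25). The lone slides that hold 2 diets give values without a test, and signal near background limits Cacnb2, Cacng7, Cacng8 and Scn4a.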
